A study of Mus musculus with 24 samples.

Results

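The cytosolic ribosomal protein genes encode the protein part of the ribosomes that translate nuclear mRNAs. They were followed in mpkCCD, a mouse kidney line that keeps features of principal cells of the cortical collecting duct. Members were the protein-coding genes whose symbols begin with Rpl or Rps and continue with a number and at most 1 letter, or with p0, p1 or p2, in the GENCODE M21 annotation of GRCm38.p6. Pseudogene symbols ending in -ps and clone names beginning with Gm were left out. The rule found 79 genes among the 54432 rows of the tables, 49 of the large subunit and 30 of the small subunit. Another 3 symbols fitted the pattern without being protein-coding, and 9 ribosomal protein genes or close relatives that the pattern misses, such as Rpsa, Rps3a1, Fau and Rack1, were described apart as a related list. Cells of passages 10-11 had been grown for 6 days on permeable filters and kept for 24 h in minimum medium. They then received dDAVP, a synthetic vasopressin analogue acting on the V2 receptor, or vehicle on the basolateral side. Cells were collected after 3, 6, 12 or 24 h, with 3 libraries in each of the 8 groups of treatment and time. The labels give C57BL/6 as the strain and wild type as the genotype of all groups, and a line grown alone lacks the other cells of the kidney.

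Each ribosome carries 1 copy of nearly every ribosomal protein, except for the acidic stalk proteins, so cells make these proteins in matched amounts. The mRNAs of the family begin with a run of pyrimidines, the 5′ terminal oligopyrimidine (TOP) motif, through which the kinase mTOR and the RNA-binding protein Larp1 control their translation. Their transcripts are among the most abundant in dividing and in resting cells, and their processed copies make up one of the largest pseudogene families of mammalian genomes.

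Some of the windows around the annotated starts carry a run of pyrimidines, the feature that the family is known for. RefSeq (GRCm38.p6) gave a promoter sequence for 59 of the 79 members. The following windows of 30 bases, 15 before the start and 15 from it on, are written 5′ to 3′ on the strand of the gene, with the longest run of C and T in capitals. The first 6 show members with a long run next to the start, and the last 4 show members whose window has a short run or none at the start, among them a paralog that was nearly silent in these cells.
Rpl7a, chr2:26910792-26910821, plus strand: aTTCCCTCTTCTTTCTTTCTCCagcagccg
Rpl27a, chr7:109519180-109519209, plus strand: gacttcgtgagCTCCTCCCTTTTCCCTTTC
Rpl15, chr14:18270972-18271001, minus strand: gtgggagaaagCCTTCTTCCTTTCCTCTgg
Rpl28, chr7:4792950-4792979, plus strand: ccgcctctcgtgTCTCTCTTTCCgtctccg
Rps18, chr17:33955651-33955680, minus strand: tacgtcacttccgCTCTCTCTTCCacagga
Rps6, chr4:86857353-86857382, minus strand: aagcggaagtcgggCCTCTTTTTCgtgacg
Rplp0, chr5:115559452-115559481, plus strand: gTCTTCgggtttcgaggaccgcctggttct
Rpl36a, chrX:134585639-134585668, plus strand: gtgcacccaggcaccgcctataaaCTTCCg
Rps16, chr7:28350674-28350703, plus strand: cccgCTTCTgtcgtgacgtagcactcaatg
Rpl3l, chr17:24727811-24727840, plus strand: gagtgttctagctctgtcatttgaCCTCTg
Within 30 bases either side of the start, a run of at least 8 pyrimidines was present in 34 of the 59 members (57.6%), against 25.7% of the 26966 other genes in the table. A C followed by 4 pyrimidines, at the start or 1 base beside it, was present in 32.2% of members and in 7.46% of other genes. CTTTC, which overlaps such runs, was found within the same 30 bases on either side in 35.6% of members and in 9.13% of other genes. CCGGAAG, a core bound by ETS-family factors, was searched on both strands over the 300 bases and was found in 40.7% of members and in 9.86% of other genes. TGACGTCA, the full cAMP response element, was found in 5 members (Rpl13, Rpl18, Rpl26, Rpl27a and Rps9; 8.47%) and in 2.02% of other genes. CGTCA on either strand, which lies within the full element, was found in 49.2% of members and in 23% of other genes. TATAAA was found in the 50 bases before the start in 0 members and in 3.16% of other genes. The window of Rpl36a shown above holds TATAAA just after the annotated start, outside the bases searched. These are matches of letters in a fixed window, and annotated starts can lie some bases from the start that a cell uses.

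Members held 3.05% to 4.14% of the estimated counts of a library, whose totals were 17.25 to 27.64 in units of 1e+06 counts. The labels do not say whether the 3 libraries of a group came from separate cultures, so a p-value here reflects how far the libraries of a group lie apart, and that spread may be technical. Aqp2, the water channel that vasopressin induces, had 199 ± 28.3 CPM (counts per 1e+06, with TMM-scaled library sizes) in dDAVP at 6 h and 5.08 ± 0.966 CPM in vehicle (SD, n = 3 each). Of 10 principal cell markers, 7 had a median of at least 1 TPM (transcripts per 1e+06) over the 24 libraries, and Aqp4, Scnn1b and Elf5 were below it. Of 13 markers of other cell types, 3 reached 1 TPM, namely Atp6v1b1 (4.85), Cd68 (3.59) and Lrp2 (2.67). Libraries also differed in the share of counts in 1457 protein-coding olfactory and vomeronasal receptor genes, a class known from sensory neurons. It ran between 0.135% and 0.901%, as known from earlier results on these data. The library with the highest receptor share, vehicle replicate 1 at 3 h, had the lowest member share (3.05%). The second highest, vehicle replicate 1 at 12 h (0.745%), had the second lowest member share (3.06%). The lowest receptor share (0.135%) and the highest member share (4.14%) were both those of dDAVP replicate 2 at 6 h.

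The summed share of the members was 3.58% ± 0.0315 in dDAVP and 3.22% ± 0.198 in vehicle at 3 h (SD, n = 3 each). At 6 h it was 4.03% ± 0.115 in dDAVP and 3.56% ± 0.204 in vehicle. At 12 h it was 3.65% ± 0.302 in dDAVP and 3.40% ± 0.342 in vehicle, and at 24 h 3.67% ± 0.14 in dDAVP and 3.64% ± 0.221 in vehicle. The groups did not overlap at 3 h and 6 h and overlapped at 12 h and 24 h. The receptor share went the other way. It was 0.373% ± 0.121 in dDAVP and 0.629% ± 0.257 in vehicle at 3 h, and 0.196% ± 0.0727 in dDAVP and 0.526% ± 0.0727 in vehicle at 6 h. It was 0.334% ± 0.0524 in dDAVP and 0.477% ± 0.285 in vehicle at 12 h. Both groups were low at 24 h, with 0.201% ± 0.0442 in dDAVP and 0.226% ± 0.0655 in vehicle. As the summed members are one score chosen with results known, no test was made of it. These are bulk libraries, in which fewer cells with a transcript and less RNA per cell cannot be told apart.

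**Figure D1:**
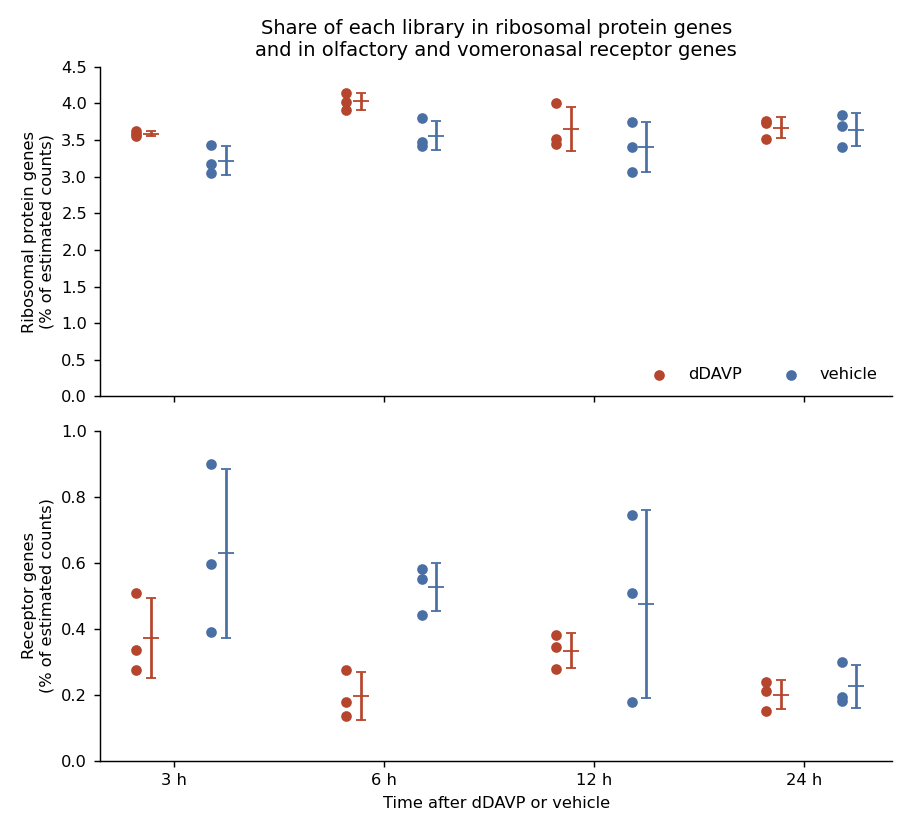
Percent of the estimated counts of each library in the 79 ribosomal protein genes (upper panel) and in 1457 olfactory and vomeronasal receptor genes (lower panel), by time, with dDAVP in red and vehicle in blue. Each point is a library, and the bar beside it is the mean and SD of 3. At 6 h the dDAVP libraries lie above all vehicle libraries in the upper panel and below all of them in the lower one.

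Levels between genes were compared per length, in the deposited TPM. The median member had a mean of 443 TPM over the 24 libraries, with 418 TPM for the large and 562 TPM for the small subunit. There were 12 members at 1000 TPM or more, 55 between 200 and 1000 TPM, 9 between 1 and 200 TPM and 3 under 1 TPM. Among the high members were Rpl41, whose product is among the shortest proteins known (2640 TPM), and the small-subunit genes Rps28 (1893 TPM), Rps29 (1879 TPM) and Rps27 (1652 TPM). The range of Rpl41 over libraries lay above that of Rps28. Of the 78 pairs of neighbours in the order of levels, 7 had ranges that did not overlap, and 14 stood in the same order in all 24 libraries. In the other pairs the ranges over libraries overlapped. At the low end of the expressed members stood Rpl12 (36.1 TPM, range 29.3 to 43.1) and Rpl5 (16.4 TPM, range 14.1 to 19.2).

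The levels of 76 members with a mean of at least 100 counts were also compared over all treatments and times on the TPM scale. The coefficient of variation of TPM over the 24 libraries had a median of 4.69%, between 3.25% for Rpl7a and 15% for Rps12. One row of the table, a gene outside the family, held between 37.44% and 51.66% of the TPM of a library, which bears on every TPM beside it.

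**Figure D2:**
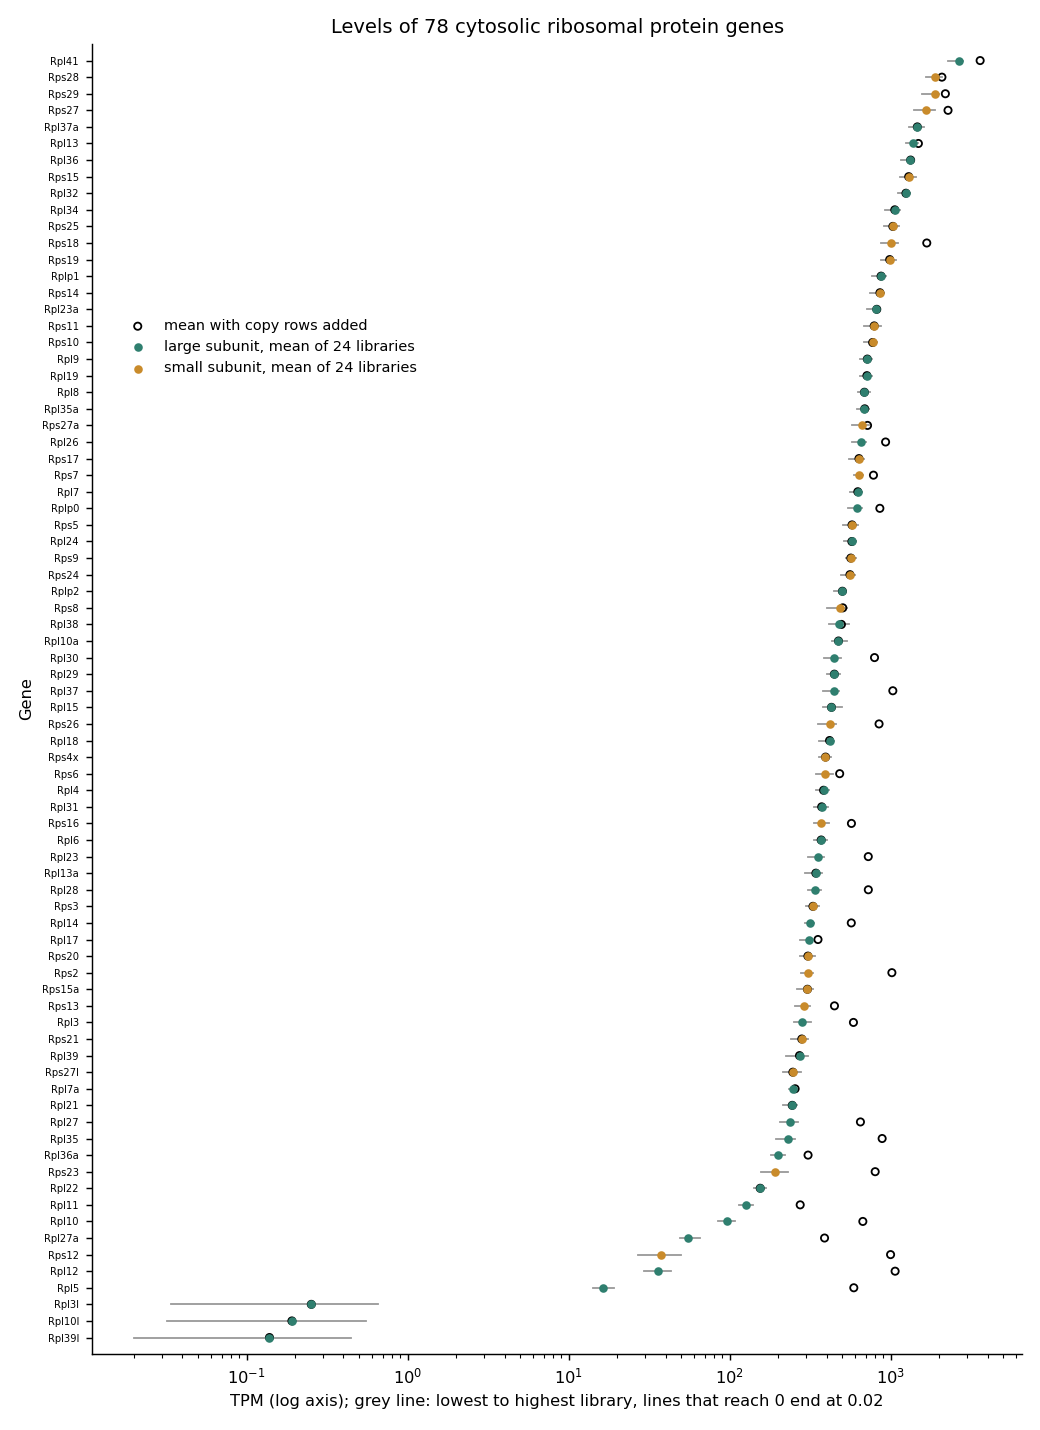
Mean TPM of 78 of the genes over the 24 libraries (filled points, large subunit in green and small subunit in ochre) with the range over libraries (grey line), on a log axis. Open circles add the copy rows of the same gene. Rpl41 stands at 2640 TPM, the 3 paralogs Rpl3l, Rpl10l and Rpl39l lie under 1 TPM, and adding copies moves Rpl5, Rpl12, Rps12 and Rpl10 from the low end into the body of the family.

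The low place of some members goes with counts in rows of near-identical copies. A copy was defined as a row named Rpl, Rps or Gm, elsewhere in the genome, whose transcripts hold at least 25% of the 31-base words of a member. There were 233 such rows for 53 members, 209 of them annotated as processed pseudogenes and 12 as protein-coding. For Rpl5, which with Rpl11 carries the smallest rRNA of the large subunit, the row held 783 counts on average, against 17322 in Gm15500, a transcribed processed pseudogene on chromosome 7 that holds 44.7% of its words. For Rpl12, part of the stalk base, the row held 1104 counts and Gm10275 on chromosome 10 held 12164. For Rps12, a small-subunit protein, the row held 553 counts, Rps12l1 held 4853 and Rps12-ps3 held 3981. Rpl10, which joins the large subunit in the last steps of its assembly, had 2117 counts and Rpl10-ps3 11319. Copies together held 95.7% of the summed counts of Rpl5 and its copies, 94.2% for Rps12, 91.7% for Rpl12 and 84.3% for Rpl10. A copy held more counts than its member for 9 members. With copies added, Rpl12 stood at 1066 TPM, Rps12 at 999 TPM, Rpl10 at 672 TPM and Rpl5 at 591 TPM, and the lowest member with at least 100 counts was Rpl22 at 154.9 TPM. Rpl15-ps3, with 5862 counts and 24.2% of the words of Rpl15, stood just outside the definition. How the estimated counts were split between such rows is not given in the sources used here, and the level of these members alone is uncertain. The cDNA kit does not mark strand, so antisense transcripts would be counted with the gene.

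At 6 h nearly the whole family was higher in dDAVP on the scale of TMM-scaled counts. Of 78 members tested, 75 were higher and 0 were lower (edgeR quasi-likelihood test, Benjamini-Hochberg adjusted p under 0.05 over 29743 genes). The background was 20.9% of all tested genes higher and 17.2% lower, that is 38.1% in either direction. Median log2 changes were 0.54 for the members and -0.39 for all tested genes, and the 76 members with at least 100 counts lay between 0.31 (Rps12) and 0.63 (Rpl36), or 1.24-fold to 1.54-fold. The groups did not overlap for 75 members, against 29.8% of all tested genes higher and 33.2% lower without overlap. By subunit, 46 of 48 tested large-subunit genes and 29 of 30 small-subunit genes were called, and the 3 exceptions were Rpl3l, Rpl10l and Rps12.

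Rpl11 (ENSMUSG00000059291, chromosome 4, 136028265 to 136053428, minus strand, GRCm38.p6), which with Rpl5 also binds the p53 ligase Mdm2, had 155.2, 163.5 and 153.6 CPM in dDAVP, against 97.49, 105.6 and 114.1 CPM in vehicle. All dDAVP libraries were above all vehicle libraries (log2 change 0.57 ± 0.142 SE, edgeR adjusted p = 0.0174). Rpl5 had 50.59, 47.55 and 45.05 CPM in dDAVP, against 34.45, 30.1 and 35.33 CPM in vehicle, again without overlap (0.52 ± 0.125, edgeR adjusted p = 0.0165). Rps21, a small-subunit protein, had 139.4, 154.6 and 136.7 CPM in dDAVP, against 85.9, 89.61 and 106.5 CPM in vehicle (0.61 ± 0.155, edgeR adjusted p = 0.0175). Rpl36 (ENSMUSG00000057863, chromosome 17, 56613416 to 56614243, plus strand), of the large subunit, had 606.3, 695.5 and 598.1 CPM in dDAVP, against 387, 381.8 and 461.1 CPM in vehicle. Its change was the largest of the family (0.63 ± 0.163, edgeR adjusted p = 0.0178). The large-subunit genes Rpl28 (201 ± 16 CPM in dDAVP, 133 ± 10.1 CPM in vehicle) and Rpl7a (390 ± 30 CPM in dDAVP, 267 ± 22.7 CPM in vehicle) complete the 6 with the smallest p.

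Transcripts of the 3 stalk proteins that recruit the translation factors were higher at 6 h in TMM-scaled CPM. Rplp0 had 1480 ± 125 CPM in dDAVP and 1028 ± 66.8 CPM in vehicle (log2 0.53). Rplp1 had 633 ± 61.9 CPM in dDAVP and 422 ± 50.6 CPM in vehicle (0.58), and Rplp2 had 320 ± 13.3 CPM in dDAVP and 214 ± 24.2 CPM in vehicle (0.59). In TPM, Rplp0 had 638, 624 and 583 in dDAVP and 636, 617 and 618 in vehicle at 6 h, with overlap. Rps6, the small-subunit protein phosphorylated downstream of mTOR, had 589.4, 633.8 and 538.9 CPM in dDAVP, against 407.2, 405.6 and 460.1 CPM in vehicle (0.47 ± 0.164, edgeR adjusted p = 0.0328). Rps27a, made as a fusion with ubiquitin, had 701 ± 41.9 CPM in dDAVP and 470 ± 48.5 CPM in vehicle. Rps18 and Rpl13a, which many studies use as constant reference genes, had log2 changes of 0.52 and 0.59 on TMM-scaled counts, and both were called. In TPM the groups overlapped for both at 6 h. Rps18 had 1012, 975 and 910 TPM in dDAVP, against 980, 981 and 1010 TPM in vehicle. Rpl13a had 366, 350 and 343 TPM in dDAVP, against 316, 346 and 354 TPM in vehicle. Of the other genes of interest, Rps26 (0.59), Rps4x (0.51), Rpl39 (0.51), Rpl10 (0.51), Rps27 (0.50), Rpl3 (0.49) and Rpl22 (0.46) were also called. Rps12 had 27.92, 33.13 and 33.97 CPM in dDAVP and 20.58, 27.86 and 28.02 CPM in vehicle, with overlap and an edgeR adjusted p of 0.149. Members were also split by whether a run of at least 8 pyrimidines lay within 30 bases either side of the start. Those with one had a median log2 change of 0.54 (33 genes), and those with only shorter runs 0.52 (23 genes).

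The calls at 6 h depend on single libraries, on the scale and on the filter for low counts. Without vehicle replicate 1, vehicle replicate 2, dDAVP replicate 1 or dDAVP replicate 2 in turn, 0 members passed and the higher calls among all genes were 200, 136, 149 and 76, against 6203. The median change of the members in those fits was 0.51, 0.51, 0.48 and 0.40. Without vehicle replicate 3, 44 members were called, and without dDAVP replicate 3, 52 were called higher and 1 lower. Higher calls among all genes were 1167 and 2281 in these 2 fits, and lower calls 3530 and 7052. On the TPM scale the summed members stood at 49570 ± 1722 TPM in dDAVP and 49670 ± 612 TPM in vehicle. The median change was -0.0069 on log2(TPM + 1), with 0 calls by limma, beside 79 higher and 6446 lower among all 29743 genes. The row that held the most TPM had 50.7% ± 1.49 in dDAVP and 44.5% ± 2.03 in vehicle. With TPM rescaled without that row, the median was 0.16, and 75 of 78 members were positive with 0 calls. Among all genes 222 were then called higher and 3808 lower. With only genes of at least 5 CPM kept, edgeR called 16 members, beside 612 higher and 1422 lower of the 12269 genes kept. The median change of the 76 members kept was then 0.21, against 0.0034 over all genes kept.

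**Figure D3:**
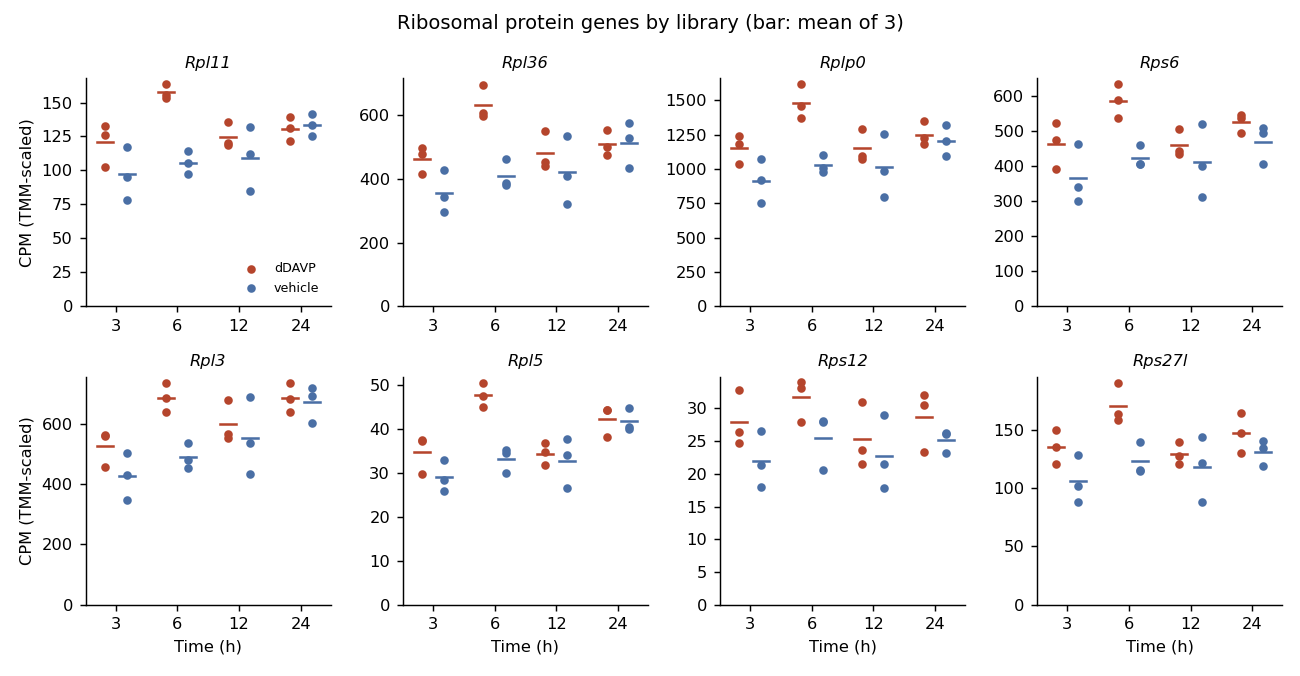
CPM with TMM-scaled library sizes of 8 genes in each library, by time, with dDAVP in red left of vehicle in blue and a horizontal bar at the mean of 3. At 6 h the dDAVP libraries lie above all vehicle libraries in 7 panels and overlap in Rps12. At 12 h and 24 h the groups overlap in all 8 panels.

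At 3 h, 76 of 78 members had a higher estimate in dDAVP and 0 passed the test by edgeR or by DESeq2. The background of all genes was 0.467% higher and 0.0168% lower. Unadjusted p was under 0.05 for 63 of 78 members by edgeR, against 4007 of the 29743 genes. The median log2 change was 0.35, against -0.14 over all tested genes, and the 76 members with at least 100 counts lay between 0.26 (Rpl5) and 0.42 (Rpl27a). Rplp0 had 1035, 1243 and 1181 CPM in dDAVP and 750.5, 917.4 and 1071 CPM in vehicle. The lowest dDAVP library stood below the highest vehicle library, as for most members, and the edgeR adjusted p was 0.365. The groups did not overlap for Rpl10, Rps16 and Rpl27, all 3 higher, against 4.04% of all tested genes higher and 8.06% lower without overlap. The values were 103 ± 7.72 CPM in dDAVP and 78.5 ± 14.3 CPM in vehicle for Rpl10. Without vehicle replicate 1, the library of the highest receptor share, the median change was 0.23.

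At 12 h and 24 h the groups overlapped for nearly all members. The median log2 change was 0.18 at 12 h and 0.053 at 24 h, and 0 members passed at either time, by edgeR or DESeq2. Both medians moved with single libraries. At 12 h the median was 0.019, with 53 members positive and 25 negative, when vehicle replicate 1 was left out. It was 0.064 without dDAVP replicate 3, and leaving out vehicle replicate 2 gave 0.41. At 24 h it was -0.017, with 33 members positive and 45 negative, without vehicle replicate 3, and 0.13 without vehicle replicate 2. The background at 12 h was 0.074% of all tested genes higher and 0.00336% lower, and that of 24 h was 0.0807% higher and 0.00336% lower. Groups without overlap were found for 0 members at 12 h, against 2.47% of all tested genes higher and 2.24% lower. They were found for 2 members at 24 h, both higher, against 4.25% higher and 5.92% lower. At an unadjusted p under 0.05 by edgeR there was 1 member at 12 h, the nearly silent Rpl10l, and 0 at 24 h, against 1130 and 947 of the 29743 genes. Rpl11 had 118.6, 120 and 135.8 CPM in dDAVP at 12 h, against 84.51, 131.9 and 111.8 CPM in vehicle. The highest vehicle library was above 2 of the dDAVP libraries. At 24 h Rpl36 had 475.4, 554.9 and 501.3 CPM in dDAVP, against 529.4, 575.8 and 433.7 CPM in vehicle, with overlap. Estimates of the 76 members with at least 100 counts ran between -0.11 for Rps27 and 0.29 for Rps23 at 24 h, each within 2 standard errors of 0.

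Over the 4 times together, 76 of 78 members were higher in dDAVP and 0 were lower by the mean effect on TMM-scaled counts, with 16.7% of all tested genes higher and 16.4% lower. The median log2 change was 0.28, a 1.21-fold difference, and the 76 members with at least 100 counts lay between 0.22 (Rpl5) and 0.34 (Rpl36a). The exceptions were Rpl3l and Rpl10l. On log2(TPM + 1) the median was 0.028, and limma called 2 members higher and 2 lower. Among all 29743 genes that fit called 172 higher and 10934 lower, with a median of -0.127. With a filter of 5 CPM the median was 0.14, and 68 members were called by edgeR, beside 1403 higher and 1882 lower of the 12269 genes kept. The smallest p belonged to Rpl36a, of the large subunit near the tRNA exit site, with 116 ± 16.1 CPM in dDAVP and 92.2 ± 16.2 CPM in vehicle (SD, n = 12 each; log2 0.34 ± 0.0762 SE, edgeR adjusted p = 0.0116). Rps23, at the decoding centre, had 208 ± 28.0 CPM in dDAVP and 165 ± 29 CPM in vehicle (0.33, edgeR adjusted p = 0.0151). Rps16 (0.29), Rpl27a (0.31), Rpl15 (0.30) and Rpl39 (0.33), which lines the exit tunnel for the new peptide, followed. Pooled over times, the groups overlapped for all 78 members, and 0.155% of all tested genes were higher and 0.00336% lower without overlap. The count of calls was between 1 and 77 when single libraries were left out, with 1 when vehicle replicate 3 at 24 h was left out and 7 without dDAVP replicate 2 at 6 h or dDAVP replicate 3 at 12 h. It was 14 without dDAVP replicate 3 at 3 h, 25 without dDAVP replicate 2 at 24 h, 40 without dDAVP replicate 2 at 3 h and 47 without dDAVP replicate 1 at 6 h. Without both libraries of the highest receptor share it was 8. Higher calls among all genes fell as well, from 4970 to 422 without vehicle replicate 3 at 24 h. They were 659 without dDAVP replicate 2 at 6 h, 760 without dDAVP replicate 3 at 12 h and 577 without both libraries.

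The size of the dDAVP effect was not shown to differ between times for any member. The edgeR test of the dependence on time called 0 of 78 members, against 0.343% of all tested genes. The likelihood ratio test of DESeq2 also called 0 members. The smallest adjusted p by edgeR was 0.544, for Rpl10. The 75 calls at 6 h beside 0 at the other times do not by themselves show that the effect differed between times.

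With vehicle alone, the family was higher at 24 h than at 3 h on TMM-scaled counts, but not on the TPM scale. Of 78 members 62 were higher and 0 lower, against 18.4% and 19.7% of all tested genes, with a median log2 change of 0.46 for members and -0.44 for all genes. Rpl3, at the peptidyl transferase centre, had 690.2, 718 and 604 CPM at 24 h, against 346.1, 430.7 and 502 CPM at 3 h. The groups did not overlap, and its change was the largest (0.65 ± 0.154 SE, edgeR adjusted p = 0.00744). In all, 44 members were higher and 2 lower without overlap, against 22.4% of all tested genes higher and 30.1% lower. Rpl5 had 41.7 ± 2.70 CPM at 24 h and 29.1 ± 3.55 CPM at 3 h (0.52, edgeR adjusted p = 0.00784). Rpl22, an RNA-binding protein of the large subunit, had 133 ± 14.5 CPM at 24 h and 93.0 ± 17.1 CPM at 3 h (0.51). Rpl10a had 461 ± 56.7 CPM at 24 h and 310 ± 52.9 CPM at 3 h (0.57), and Rps16 had 280 ± 30.3 CPM at 24 h and 194 ± 35.0 CPM at 3 h (0.53). Rpl10 had 113 ± 18.4 CPM at 24 h and 78.5 ± 14.3 CPM at 3 h (0.53), with overlap. Rps6 did not pass (470 ± 56.6 CPM at 24 h, 367 ± 85.8 CPM at 3 h, edgeR adjusted p = 0.081). The receptor share was 0.226% ± 0.0655 at 24 h and 0.629% ± 0.257 at 3 h in these libraries. On the TPM scale the summed members stood at 49940 ± 1735 TPM at 24 h and 49060 ± 1433 TPM at 3 h. On log2(TPM + 1), limma called 1 member, 39 were positive and 39 negative, and the median change was 0.0027. Among all 29743 genes that fit called 293 higher and 12055 lower. Rpl22 turned to -0.045 on that scale. With a filter of 5 CPM, edgeR called 18 members, with a median of 0.16, beside 1670 higher and 2289 lower of the 12269 genes kept. Calls of members on TMM-scaled counts numbered 0 without vehicle replicate 1 at 3 h and 16 without replicate 2 at 3 h. They numbered 3 without replicate 1 at 24 h and 2 without replicate 2 at 24 h. Higher calls among all genes in those fits were 386, 3105, 1190 and 1519, against 5460.

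With dDAVP, 0 of 78 members passed between 24 h and 3 h, against 1.01% of all tested genes higher and 0.293% lower. The median log2 change was 0.17 on TMM-scaled counts, with 4 members at an unadjusted p under 0.05, against 6651 of the 29743 genes, and DESeq2 also called 0. It was 0.087 without dDAVP replicate 1 at 3 h and 0.039 with a filter of 5 CPM. On log2(TPM + 1) it was -0.0036, with 37 members positive and 41 negative. Rpl3 had 685 ± 48.8 CPM at 24 h and 527 ± 61.1 CPM at 3 h (0.38, edgeR adjusted p = 0.171), and Rpl22 had 144 ± 7.27 CPM at 24 h and 113 ± 9.84 CPM at 3 h (0.34, edgeR adjusted p = 0.171). The groups did not overlap for either gene, as for 16 members higher and 1 lower, against 12.2% of all tested genes higher and 19.5% lower. Whether the change over time differs between dDAVP and vehicle was asked only through the dependence of the dDAVP effect on time, above.

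Changes of the members went with the receptor share of the libraries. With the log2 receptor share added to the edgeR model, 0 members were called in any of the 8 comparisons. Among all tested genes that model called 0.619% higher and 0.108% lower at 3 h. It called 0.279% higher and 0.0572% lower for 6 h, 0.212% higher and 0.0841% lower for 12 h, and 0.252% higher and 0.0975% lower for 24 h. It called 0.951% higher and 0.272% lower for the mean effect, and 0.256% for the dependence on time. Over time it called 0.541% higher and 0.158% lower in vehicle, and 1.37% higher and 2.6% lower in dDAVP. The median log2 change of the members in it was 0.13, 0.054, 0.10 and 0.0069 at 3, 6, 12 and 24 h, with 0.071 for the mean effect. Over all tested genes the medians were 0.0462, 0.0375, 0.0441 and -0.0243, with 0.0236 for the mean effect. At 3 h all 78 estimates were positive in that model, and for the mean effect 77 were positive. In vehicle at 24 h against 3 h the median was -0.0043, against 0.0444 over all tested genes. In dDAVP at 24 h against 3 h it was -0.12, with 5 members positive and 73 negative, against -0.0254 over all tested genes. At 6 h, where the receptor shares of the groups did not overlap, 68 members were positive and 10 negative. The part of the receptor share in these changes was not tested beyond this model.

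**Figure D4:**
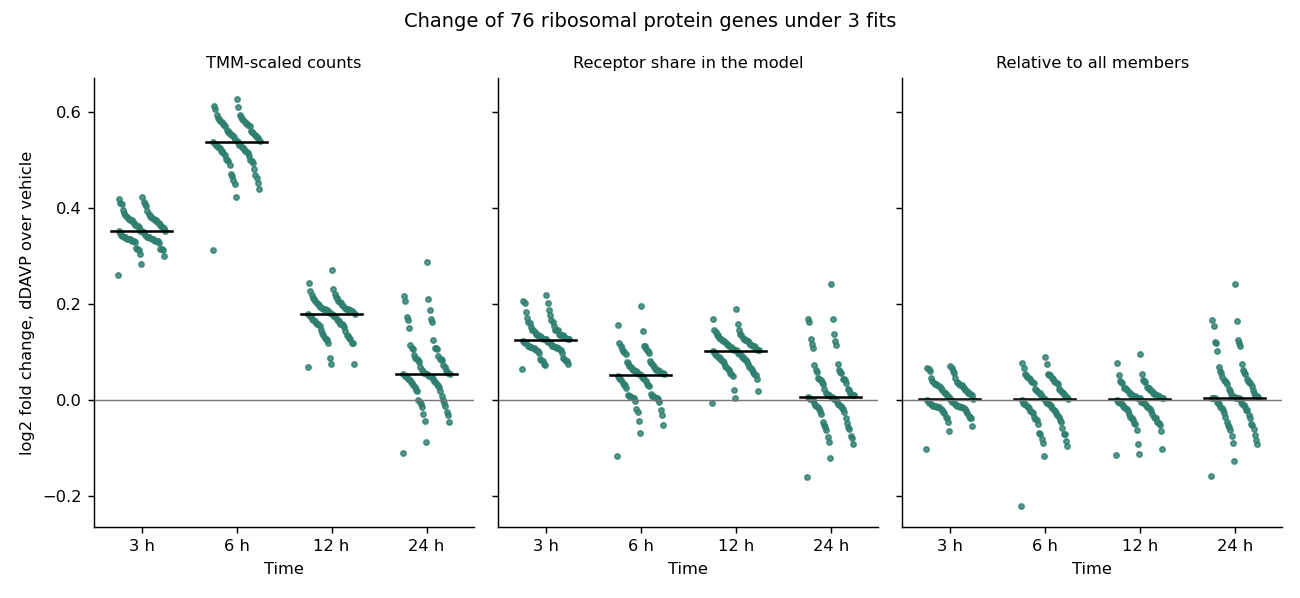
Log2 fold change of dDAVP over vehicle at each time for the 76 members with at least 100 counts (points) and their median (line), under 3 fits: TMM-scaled counts, the same with the receptor share as a covariate, and counts relative to the summed members. The medians of 0.35, 0.54, 0.18 and 0.053 in the left panel are 0.13, 0.051, 0.10 and 0.0069 in the middle panel, and near 0 in the right panel, where the family is its own reference.

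Other abundant genes moved the same way at 6 h. Among 2106 other tested genes with at least 100 CPM, 80.1% were called higher and 21 genes lower at 6 h, with a median log2 change of 0.40, against 0.54 for the members. For the mean effect 70.1% of them were called higher (median 0.19), and in vehicle at 24 h against 3 h 58.3% (median 0.36). The 9 ribosomal protein genes and relatives outside the symbol rule were all higher at 6 h (median 0.53). Fau, made as a fusion with a ubiquitin-like protein, had 724 ± 48.6 CPM in dDAVP and 484 ± 36.0 CPM in vehicle (0.58). Rack1, the scaffold on the small subunit, had 1091 ± 91.8 CPM in dDAVP and 764 ± 52.8 CPM in vehicle (0.51). The small-subunit genes Rps3a1 and Rpsa both had a log2 change of 0.52.

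Lists around the ribosome were described in the same way, and none has a test of its own. Their counts at 6 h stand beside 20.9% of all tested genes higher and 17.2% lower. Among genes outside the family with at least 100 CPM, a level that not all listed genes reach, 80.1% were higher (median 0.40). Of 21 other translation genes with TOP mRNAs, 19 were higher at 6 h and 0 lower (median 0.43), among them Eif3k (0.56), Eef1g (0.55) and Eef1d (0.48), subunits of initiation and elongation factors. Of 78 mitochondrial ribosomal protein genes, 67 were higher and 0 lower (median 0.44), among them Mrpl58 (0.57), Mrpl35 (0.55) and Mrps27 (0.51). Of 46 ribosome assembly genes, 32 were higher and 0 lower (median 0.40), among them Polr1d, a subunit of RNA polymerase I and III (0.57), and the small-subunit assembly factor Bysl (0.51). Of 19 regulators of TOP translation and ribosome output, 13 were higher and 0 lower (median 0.37). They included Myc, which had 167 ± 9.90 CPM in dDAVP and 115 ± 1.42 CPM in vehicle (0.53), its antagonist Mxi1 (0.90), and Larp1 (0.46). Mxi1 was also the 1 gene of these lists whose dDAVP effect depended on time (edgeR adjusted p = 0.0462). For the mean effect the calls were 20 of 21, 60 of 78, 34 of 46 and 12 of 19, all higher. Called higher for that effect were 16.7% of all tested genes and 70.1% of genes outside the family with at least 100 CPM.

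In vehicle, at 24 h against 3 h, 13 of 21 TOP translation genes, 37 of 78 mitochondrial ribosomal protein genes and 9 of 19 regulators were higher and 0 lower, against 6 of 46 ribosome assembly genes. The background was 18.4% of all tested genes higher and 19.7% lower, and the share of the assembly genes was below it. Among genes outside the family with at least 100 CPM, 58.3% were higher, with a median of 0.36. The medians of the lists were 0.40, 0.34 and 0.30, against 0.13 for assembly, and the members stood at 0.46. Differences between lists were not tested. Mycn, a relative of Myc, had the largest change of the regulators (36.4 CPM at 24 h, 23.9 CPM at 3 h, log2 0.60, edgeR adjusted p = 0.00185). It was also called in dDAVP between these times (0.56, edgeR adjusted p = 0.00853).

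Between replicate libraries, shares within the family varied less than CPM. Dividing by the summed members removes any shift that they share in a library. Other abundant genes were not put through the same calculation, so the small spread is not shown to be particular to the family. Between replicate libraries of a group, the log2 CPM of the 76 members with at least 100 counts had a median SD of 0.201 (0.152 to 0.241). The log2 share of the summed member counts had a median SD of 0.0338, between 0.0165 and 0.157, and it was under 0.1 for 74 of the 76. Rpl5 (0.152) and Rpl10 (0.171) had the smallest SD of log2 CPM, and Rps12 (0.241) the largest. Copy rows hold more counts than the member itself for each of these 3. The nearly silent paralogs Rpl3l (0.307) and Rpl10l (0.268) were above and Rpl39l (0.174) below the median, on values that rest on a few counts.

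**Figure D5:**
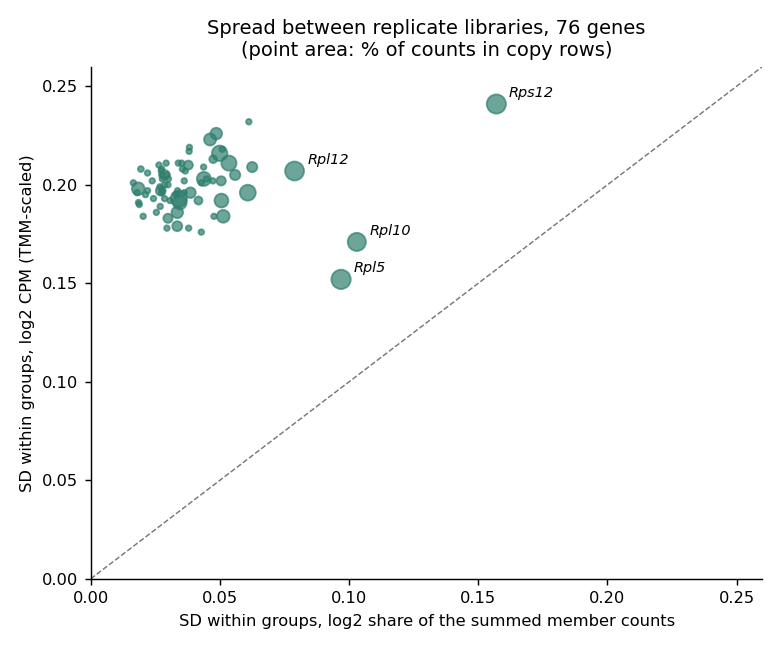
SD between replicate libraries of log2 CPM (vertical) against that of the log2 share of the summed member counts (horizontal) for 76 genes, with the area of a point growing with the percent of counts in copy rows and a dashed line where both are equal. All genes lie above the line, most near 0.201 by 0.0338, and Rps12, Rpl10, Rpl5 and Rpl12 lie to the right.

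Relative to the summed members, 2 genes passed in 5 comparisons. At 6 h, 74 of the 76 members with at least 100 counts lay within 0.1 of 0 on the log2 scale, and Rpl15, a large-subunit protein, was the 1 member called, and the call was lost in 5 of the 6 fits that leave out 1 library. It held 1.30%, 1.31% and 1.26% of the member counts in dDAVP, against 1.38%, 1.42% and 1.4% in vehicle, without overlap (-0.12 ± 0.0449 SE, edgeR adjusted p = 0.0467). The background in that fit was 37% of all tested genes lower and 0.35% higher. The adjustment ran over all tested genes, so the p that a member needed depended on how many genes passed in a fit. Calls relative to the members are therefore not comparable between times. Over the 4 times, Rpl10l was called (-1.08, edgeR adjusted p = 0.0262), on 5.34 counts per library on average. The background there was 55.5% of all tested genes lower and 0.558% higher. At 3 h, 12 h and 24 h 0 members were called, against 0.161% of all tested genes higher and 0.192% lower for 3 h, 0.0471% higher and 0.0202% lower for 12 h, and 0.0908% higher and 0.00336% lower for 24 h. At these times 75, 73 and 64 of the 76 members with at least 100 counts lay within 0.1 of 0 on the log2 scale. At 24 h Rpl15 stood on the other side, with 1.42%, 1.42% and 1.49% of member counts in dDAVP, against 1.29%, 1.25% and 1.36% in vehicle (0.15, edgeR adjusted p = 0.68). Rps23 held 0.551%, 0.537% and 0.583% in dDAVP at 24 h, against 0.470%, 0.471% and 0.473% in vehicle (0.24 ± 0.0517, edgeR adjusted p = 0.113). Its groups did not overlap, and its shift was the largest of the 76 at 24 h, but it did not pass over all genes. Of the counts of Rps23 and its copies, 58.9% lie in the copy rows, which this share leaves out. The share of Rpl15 leaves out Rpl15-ps3, which holds 24.2% of the words of Rpl15. That row had 5862 counts on average, beside 10530 for Rpl15.

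Paralogs with known tissue specificity were almost absent. Rpl3l, known from heart and skeletal muscle, had 0.253 TPM on average against 281 TPM for Rpl3, with 2 to 21 counts per library. Rpl10l, known from testis, had 0.191 TPM against 96.6 TPM for Rpl10. Rpl39l, also known from testis, had 0.139 TPM against 272 TPM for Rpl39, was listed at 0 in 6 libraries and was not tested. Rpl3l had 0.0847, 0.111 and 0.478 CPM in dDAVP at 6 h, against 0.676, 0.388 and 0.647 CPM in vehicle. The groups overlapped, and the change did not pass (log2 -1.29 ± 0.624 SE, edgeR adjusted p = 0.0922). Unlike these 3, Rps27l, a paralog of Rps27 known as a p53 target, was expressed at 247 TPM against 1652 TPM for Rps27, or 12.6% to 16.8% of it in single libraries. Rps27l had 163.1, 189.8 and 158 CPM in dDAVP at 6 h, against 115.2, 114.5 and 139.1 CPM in vehicle, without overlap (0.47 ± 0.152, edgeR adjusted p = 0.0259).

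Copy rows moved with their members. They share sequence with the members by definition, so their estimated counts are not independent of those of the members. The 25 copies with the most counts had a median log2 change of 0.55 at 6 h, with 24 higher and 0 lower, against 20.9% of all tested genes higher. Among genes outside the family with at least 100 CPM, 80.1% were higher at 6 h, with a median of 0.40. Gm15500 had 1034 CPM in dDAVP and 731 CPM in vehicle at 6 h (0.50, edgeR adjusted p = 0.0248), beside 0.52 for Rpl5. Rps12l1 (0.59) and Rps12-ps3 (0.53) were called where Rps12 was not (0.31). Gm6472 was the 1 of the 25 that was not called (0.16). With the counts of copies added to their member, 76 of 78 members were called at 6 h and 68 in vehicle at 24 h against 3 h. Of all 29576 genes in that fit, 6216 were higher and 5154 lower at 6 h. In vehicle over time 5470 were higher and 5881 lower.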

How the data were processed

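RNA was measured in 24 libraries, 3 in each of 8 groups. Per the submitters' processing notes, the authors used Salmon 0.14.10 and the build GRCm38.p6. They deposited an estimated count per gene and a TPM value (transcripts per 1e+06) per gene, one table each, and every column was matched to a sample by name, with 0 columns left out. The strandedness setting is not given in the sources used here, and per the labels' protocols cDNA came from a SMART-Seq kit, which does not mark strand.

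Gene names came from GENCODE M21, which named 54346 IDs and left 86 without a name. Estimated counts were rounded and tested with edgeR 4.0.16 (quasi-likelihood test, TMM, filterByExpr over the 8 groups, 1 mean per group over all 24 libraries, Benjamini-Hochberg adjustment over the 29743 genes tested). limma 3.58.1 and DESeq2 1.42.0 in R 4.3.3 were alternatives. The fit relative to the members used their summed counts as library size. Scripts were tested on simulated data. The chi-square per gene between replicates lay between 2.522 and 36.71, so no pair agreed within sampling noise.

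The members and lists were chosen with earlier results of these data known. Genes named were up to 6 called per direction and comparison with the smallest p, the 5 highest and 5 lowest by TPM, the 3 with the largest and the 3 with the smallest spread, up to 3 called genes of a related list, and a list of stalk, assembly and paralog genes. Rpl27, the copy rows and Rpl15-ps3 were named after their values were seen. Intervals between libraries cover the spread of these libraries only. Some items that the rule names are not reported here.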

Additional observations from a re-analysis of the deposited data

How the results depend on the processing

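The counts of members called are compared here with 75 at 6 h, 76 for the mean effect and 62 in vehicle at 24 h against 3 h. At 6 h members called numbered 46 with no filter, 16 with a 5 CPM filter and 0 by limma on log2(TPM + 1). They numbered 1 (lower) on log2(TPM + 0.1), 0 with the receptor share as covariate and 0 with TPM rescaled without the largest row. Among all genes, no filter gave 1489 higher and 3443 lower of 52264, and the 5 CPM filter 612 higher and 1422 lower of 12269. The last 4 settings gave 79 and 6446, 102 and 10488, 83 and 17, and 222 and 3808 of 29743, higher and lower. For the mean effect, members called numbered 4, 3, 0 and 31 by those last 4 settings. Of these, 2 were higher and 2 lower on log2(TPM + 1), and 2 higher and 1 lower on log2(TPM + 0.1). Without the 2 libraries of highest receptor share, 8 members were called. Among all genes the 4 settings gave 172 and 10934, 173 and 10565, 283 and 81, and 421 and 5806 of 29743, higher and lower. Without the 2 libraries it was 577 and 102 of 29786. In vehicle over time, members called numbered 18 with the 5 CPM filter, and 1, 1, 0 and 25 by those 4 settings. Without the 2 libraries 11 members were called. Among all genes the 5 CPM filter gave 1670 higher and 2289 lower of 12269. The 4 settings gave 293 and 12055, 282 and 10688, 161 and 47, and 1354 and 7487 of 29743, higher and lower. Without the 2 libraries it was 1896 and 955 of 29786. In dDAVP over time, where 0 were called, members called numbered 2 with the 5 CPM filter and 1 by limma with either pseudocount. Among all genes the 5 CPM filter gave 1128 higher and 828 lower of 12269. limma gave 156 higher and 296 lower on log2(TPM + 1), and 164 higher and 340 lower on log2(TPM + 0.1), of 29743. RLE scaling and DESeq2 kept the 3 counts of members (75, 76 and 62) within 1.5 times. The median log2 change of all tested genes at 6 h was -0.39 with TMM and -0.23 on log2(TPM + 1), and changes of members are relative to it. Rpl5 at 6 h turned to -0.1002 and -0.1056 on log2(TPM + 1) and log2(TPM + 0.1), and Rpl22 in vehicle over time to -0.04465 and -0.04492. The cause of these shifts was not tested.

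Leaving out 1 library at a time gave 0 to 53 at 6 h, 1 to 77 for the mean effect and 0 to 75 in vehicle over time. It gave 0 throughout at 3 h, 12 h and 24 h, for the dependence on time and in dDAVP over time. Relative to the members it gave 0 to 1 at 6 h and 0 to 3 for the mean effect. TMM over the members gave 2 for the mean effect.

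The labels do not say whether equal replicate numbers pair the libraries, and the main fits used no pairing. Deviations of same-numbered dDAVP and vehicle libraries correlated between -0.266 and 0.578 at single times, which does not decide the question. With the replicate number as a block, 75 members were called at 6 h, 76 for the mean effect and 72 in vehicle over time. Higher calls among all 29743 genes were 6897, 5742 and 6086 in these comparisons. Relative to the members, that block gave 2 at 6 h.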
